A study of Jatropha curcas with 4 samples.

Results

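Intronless genes are gene models whose coding region lies in a single exon. In the deposited Jatropha gene models, 4613 of 57437 models had exactly 1 coding exon and carried no note (such as short, partial or TE) on the model. A model counted as a member when its CPM (the reads of a gene over the summed counts of its library, times 1000000) reached 1 or more in 2 or more of the 4 libraries, and 1930 did. Of the others, 1963 had no read in any library and 720 had reads below this limit. The 1930 genes were set against 10820 models of 2 to 14 coding exons, also without a note, that met the same limit, and against all 17410 models that met it. A gene that is low in either treatment could pass through the other treatment alone, so values over the genes that passed are descriptions of expressed genes.

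Roots of Jatropha curcas, grown from seeds of Chainat origin, were sampled at about 30 days of age. Waterlogged roots (WS) came from pots that stood for 24 h in water 3 cm above the soil, and non-stress roots (NS) came from pots kept for 24 h in a container without water. Each treatment had 2 libraries of poly(A) RNA from whole roots, described as independent biological replicates of mRNA pools. A whole root mixes many cell types, so that fewer cells of a type and less RNA per cell cannot be told apart. Summed counts were 4143491 and 2531520 in the WS libraries and 6110438 and 1204502 in the NS libraries. No root cell type marker could be paired with a gene ID in the tables used, and 7 photosynthesis genes, as markers of green tissue, summed to 68.6 and 37.5 CPM in WS and to 76.9 and 65.0 CPM in NS, with none past the threshold. Of these 7 genes, 0 and 2 had no read in the WS libraries and 0 and 2 in the NS libraries.

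Most plant genes are interrupted by introns, which must be spliced out before the mRNA leaves the nucleus. Introns in many plant genes raise mRNA accumulation, whereas transcripts of intronless genes need no splicing before export, and such genes often belong to families that grew by duplication. Large plant families with many intronless members include ethylene response factors (ERFs) and DREB transcription factors, pentatricopeptide repeat proteins of organelles, calmodulin-like calcium sensors, many F-box and RING proteins of the ubiquitin system, and small auxin-up RNAs.

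The single exon of the 1930 genes was 300 to 3837 bp long, with a median of 801 bp (quartiles 492 and 1304 bp), against a median summed exon length of 1089 bp in models of 2 to 14 exons. In 1929 of the 1930 genes the exon length was a multiple of 3, so the models hold coding sequence and no untranslated region. An intron in an untranslated region would thus not be seen, and such a gene would count as intronless here. The exception was Jcr4S01534.80 (scaffold Jcr4S01534, 36543 to 37468, 926 bp). The genes lay on 1459 scaffolds, 1051 on the plus strand and 879 on the minus strand, and 1154 of these scaffolds held a single member. Scaffold Jcr4S00004 held 10 members, the highest number, and none of these passed the test for a change. Only Jcr4S02503.20 (scaffold Jcr4S02503, 17220 to 17831) overlapped another gene model, so reads of overlapping genes bear on 1 member.

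Intronless models were measured at lower levels than models with introns, and the gap was narrower per length of exon. The median of the mean CPM over the 4 libraries was 13.1 for intronless genes and 20.6 for models of 2 to 14 exons. Per kb of exon, the medians were 16.2 CPM per kb for intronless genes and 18.9 CPM per kb for models of 2 to 14 exons. The limit on CPM was met by 41.8% of the intronless models without a note and by 55.0% of the models of 2 to 14 exons without a note. How reads across exon junctions were counted was not given, and such reads exist only for models with introns, so their part in these levels was not tested. A read in all 4 libraries was found for 1552 intronless genes (80.4%) and 9573 models of 2 to 14 exons (88.5%).

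Intronless genes took a slightly larger share of all counts in waterlogged roots. The share was 9.79% and 9.69% in the WS libraries, against 9.05% and 9.17% in the NS libraries, so both WS values lay above both NS values. Models of 2 to 14 exons took 64.7% and 64.8% of counts in WS and 68.5% and 67.7% in NS. With 2 libraries against 2, an exact two-sided permutation test cannot give a p below 0.333, and no test of these shares was made. The number of members without a read was lowest in the deepest library (12 in NS replicate 1) and highest in the shallowest (241 in NS replicate 2). It was nearly equal in the WS libraries (94 and 95), although WS replicate 1 was deeper than WS replicate 2. Only 24 members had no read in either WS library, and 9 had none in either NS library.

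Of the 1930 intronless genes, 115 differed between WS and NS, with 70 up-regulated and 45 down-regulated in WS (edgeR quasi-likelihood test, Benjamini-Hochberg adjusted p under 0.05 over all 17410 models). This was 5.96% of the intronless genes (3.63% up and 2.33% down), beside 4.37% of all models tested (2.45% up and 1.91% down). Models of 2 to 14 exons had 256 up-regulated and 235 down-regulated, or 4.54% (2.37% and 2.17%). At an unadjusted p under 0.05, 503 intronless genes passed (26.1%), against 20.5% of models of 2 to 14 exons and 19.9% of all models tested. The difference between these shares was not tested.

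The counts depended on the libraries. Without NS replicate 1 or NS replicate 2 no gene model of any kind passed, with lowest adjusted p-values among intronless genes of 0.102 and 0.110 and with 376 and 263 of them at an unadjusted p under 0.05 (edgeR quasi-likelihood test). With all 4 libraries the median absolute log2 fold change of intronless genes was 1.10. It was 1.03 without WS replicate 1 and 1.25 without WS replicate 2, fits that leave 1 WS library. With library totals in place of TMM (trimmed mean of M-values) scaling, the split was 63 up-regulated and 64 down-regulated (361 and 433 among all models). That scaling moved the median log2 fold change of all models to -0.22 (0.01 with TMM) and that of intronless genes to -0.19 (0.03 with TMM), so the intronless median stayed close to that of all models.

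The 70 up-regulated intronless genes had log2 fold changes of 1.91 to 10.01 (median 4.15), and the 45 down-regulated genes had log2 fold changes of -9.42 to -1.90 (median -3.68), as fitted. With the gene that had no read in a treatment set to its floor bound, the medians were 4.10 and -3.68. Values for single genes are given from here on in CPM over TMM-scaled library sizes or, where so stated, as reads, which are not scaled for library depth. On the CPM scale the WS libraries did not overlap with the NS libraries in any of the 115 genes. These genes were selected by the test on the same 4 libraries, so this separation is no added support for the calls. The share of all models with such separation was not counted. The up-regulated genes had a median exon of 628.5 bp and the down-regulated genes one of 819 bp, against 801 bp over the 1930 genes. Their median mean CPM was 89.9 for the up-regulated and 39.4 for the down-regulated genes. In 8 of the up-regulated genes WS replicate 1 was more than 5 times WS replicate 2, and in none was it the reverse. Of the up-regulated genes, 1 had no read and 9 had 1 to 3 reads in NS, and of the down-regulated genes, 1 had no read and 4 had 1 to 3 reads in WS. Descriptions or names in the tables used covered 13 of the up-regulated and 0 of the down-regulated genes. The descriptions used covered only part of the gene models. Genes named below with a description lay on scaffolds Jcr4S00001 to Jcr4S00037, and no down-regulated gene lay on these scaffolds. The lack of descriptions is thus no result about the down-regulated genes.

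**Figure D1:**
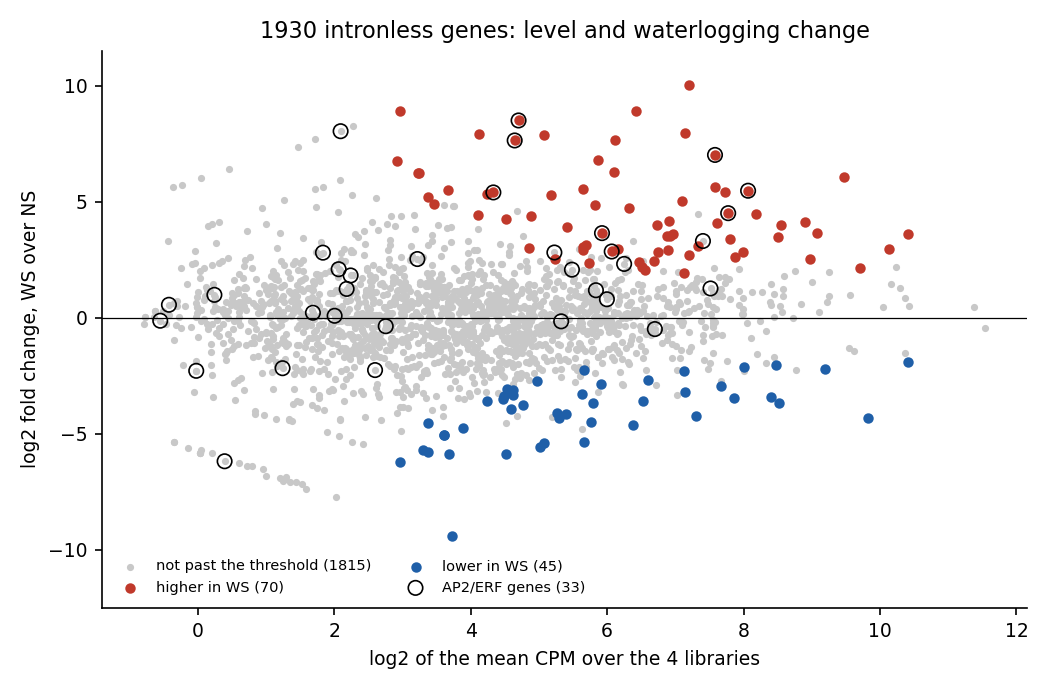
Each point is an intronless gene, with the log2 of its mean CPM on the horizontal axis and the log2 fold change of WS over NS on the vertical axis. Red points are the 70 genes higher in WS, blue points the 45 genes lower in WS, grey points the genes not past the threshold, and circles mark 33 AP2/ERF genes, most of which lie above 0.

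Level affects how large a measured change can be and whether it passes a test, so the sets were compared in 8 strata of mean CPM (limits 2, 5, 10, 20, 50, 100 and 200 CPM), with the models of 2 to 14 exons weighted to the intronless numbers. The median absolute log2 fold change of intronless genes was 1.10, against 0.83 in all models of 2 to 14 exons. In matched strata it was 1.09 for intronless genes and 0.88 for models of 2 to 14 exons, and it was larger for intronless genes in 8 of 8 strata. An absolute log2 fold change above 1 was measured for 1022 intronless genes (53.0%) and for 42.9% of models of 2 to 14 exons.

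The gap was narrow at low levels and widest above 200 CPM. Below 2 CPM the median absolute log2 fold change was 0.97 in 186 intronless genes and 0.95 in 640 models of 2 to 14 exons. At 50 to 100 CPM it was 0.95 in 198 intronless genes and 0.69 in 1494 models, and above 200 CPM it was 1.51 in 82 intronless genes and 0.94 in 635 models. The mean CPM that sets a stratum includes the WS libraries, so a gene can reach a high stratum through its own rise in WS. This holds for both sets, and shares by stratum are thus not independent of the change. The shares of up-regulated genes differed in the same strata. At 100 to 200 CPM, 15.0% of 113 intronless genes and 5.39% of 779 models of 2 to 14 exons were up-regulated, whereas 2.65% of the intronless genes and 5.39% of the models of 2 to 14 exons were down-regulated. Above 200 CPM, 19.5% of intronless genes and 13.2% of models of 2 to 14 exons were up-regulated, and 11.0% of intronless genes and 5.51% of models of 2 to 14 exons were down-regulated. Weighted over all strata, the up-regulated share was 3.63% for intronless genes and 1.87% for models of 2 to 14 exons, and the down-regulated share was 2.33% for intronless genes and 1.77% for models of 2 to 14 exons. Against models of 2 to 4 exons only, weighted in the same way, the gap in up-regulated genes was smaller (2.58% in these models). Their down-regulated share was 2.41%, so that of intronless genes was not larger. No test of the difference between the sets was made. The larger down-regulated share was also not seen at equal depth (all libraries thinned to the smallest total). There 19 intronless genes (1.01%) and 147 models of 2 to 14 exons (1.38%) were down-regulated.

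The difference between libraries of the same treatment was examined in the same strata, as the median absolute log2 difference with 0.5 CPM added. Weighted over strata it was 0.84 for intronless genes and 0.78 for models of 2 to 14 exons between the WS libraries, and 0.85 for intronless genes and 0.85 for models of 2 to 14 exons between the NS libraries. In the WS libraries it was larger in intronless genes in each stratum above 5 CPM (0.75 against 0.58 at 20 to 50 CPM) and smaller in both strata below it (1.05 against 1.20 below 2 CPM). In the NS libraries it was larger in intronless genes in each stratum above 20 CPM (0.59 against 0.46 at 50 to 100 CPM) and smaller in each stratum below it. Above 100 CPM, where the size of the change differed most, spread between replicates was thus larger in intronless genes in both treatments. At 10 to 20 CPM, where the sizes also differed (1.09 against 0.80), spread was larger in WS (0.82 against 0.69) but smaller in NS (0.76 against 0.80). The part of this spread in the result was not tested.

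The larger change was measured in each of the 4 combinations of a WS with an NS library. The level-matched median absolute log2 ratio was 1.14 for intronless genes and 0.90 for models of 2 to 14 exons in WS replicate 1 over NS replicate 1. It was 1.58 for intronless genes and 1.34 for models of 2 to 14 exons in WS replicate 1 over NS replicate 2. In WS replicate 2 it was 0.96 for intronless genes and 0.83 for models of 2 to 14 exons over NS replicate 1, and 1.37 for intronless genes and 1.18 for models of 2 to 14 exons over NS replicate 2. Both sets had higher medians over NS replicate 2 than over NS replicate 1. By stratum, the intronless median was larger in 7 of 8 strata for WS replicate 1 over NS replicate 1 and in 6 of 8 over NS replicate 2. For WS replicate 2 it was larger in 7 of 8 strata over NS replicate 1 and in 8 of 8 over NS replicate 2. The combinations share libraries and are not replicates of each other. The intronless median was also larger than the matched one in 13 of 13 alternative fits.

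**Figure D2:**
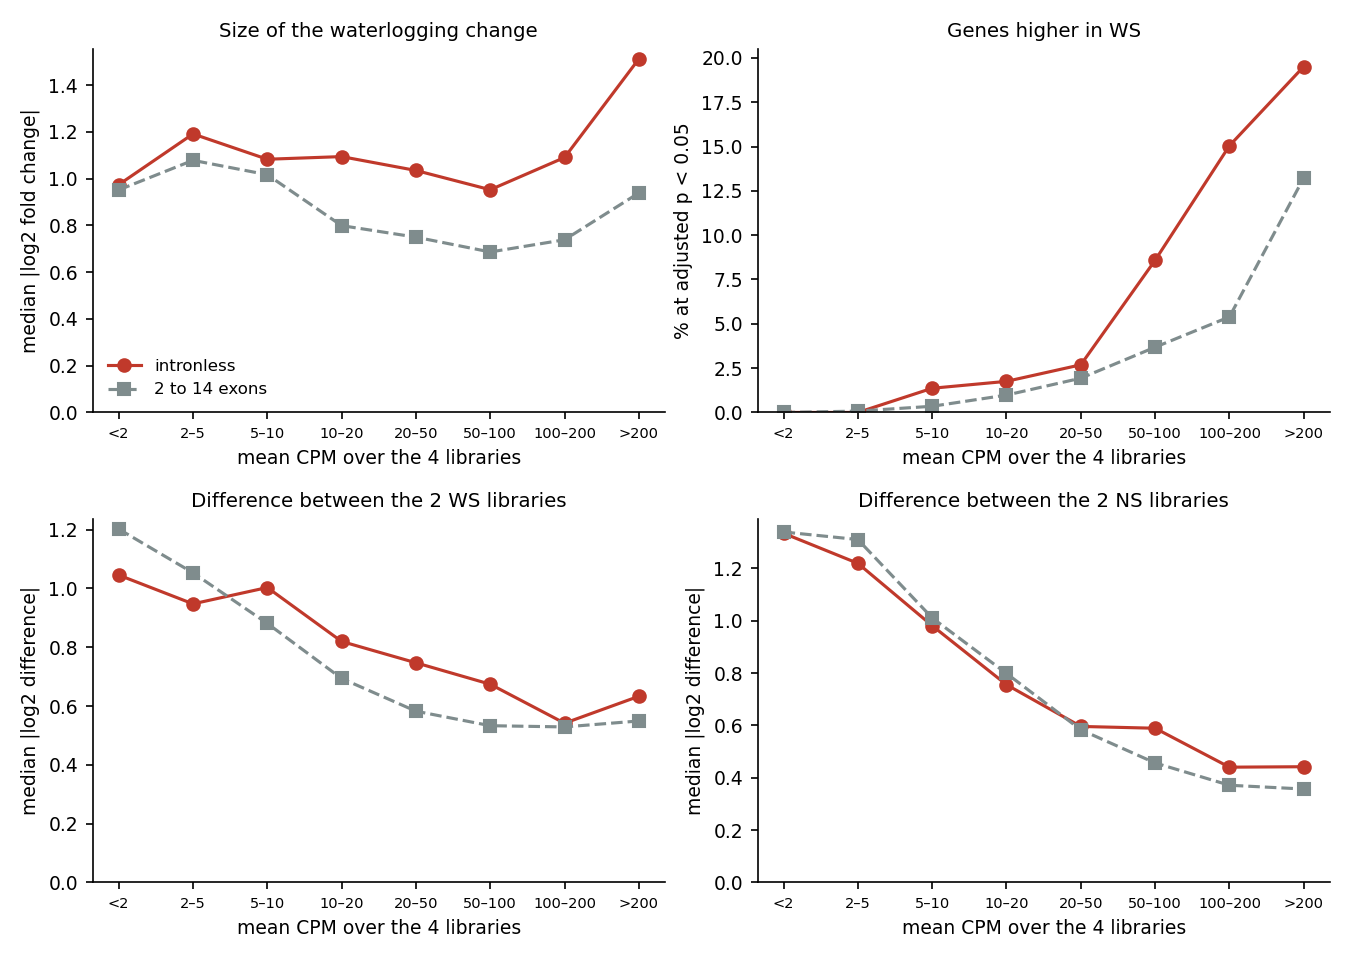
The 4 panels plot, against the mean CPM of a gene, the median absolute log2 fold change, the percentage of genes higher in WS and the median absolute log2 difference between the 2 WS and between the 2 NS libraries. Red circles are intronless genes and grey squares models of 2 to 14 exons, with the largest gap in the size of the change above 200 CPM (1.51 against 0.94).

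The size of the change declined stepwise over models of 1 to 4 exons, with no further steady decline beyond 4 exons at matched level. The median absolute log2 fold change was 1.10 for 1930 intronless genes, 1.04 for 1697 genes of 2 exons, 0.92 for 1504 genes of 3 exons, 0.84 for 1339 genes of 4 exons and 0.69 for 252 genes of 14 exons. Weighted to the levels of the intronless genes it was 1.09 for intronless genes, 1.03 for 2 exons, 0.90 for 3 exons and 0.84 for 4 exons, and it lay between 0.75 and 0.93 for 5 to 14 exons, whose smallest strata held 3 to 69 models. The share of genes called was 5.96% for intronless genes but 6.36% for genes of 2 exons, of which 3.24% were up-regulated and 3.12% down-regulated. Against models of 2 to 4 exons only, the level-matched median absolute log2 fold change was 1.09 for intronless genes and 0.95 for the others.

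**Figure D3:**
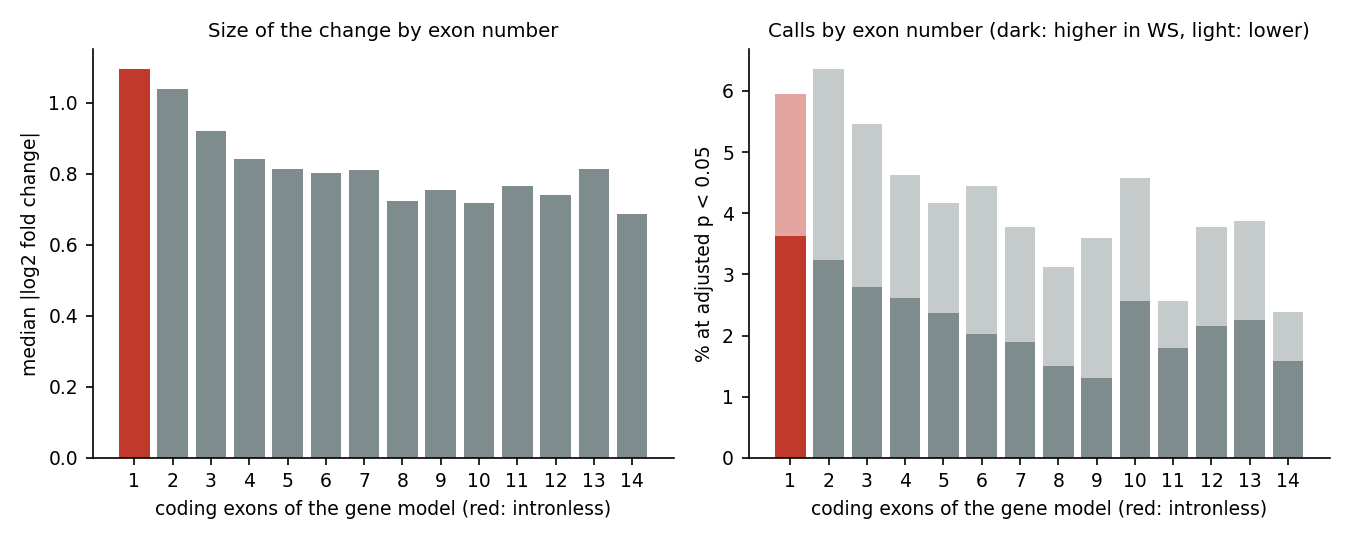
The bars show the median absolute log2 fold change (left) and the percentage of genes past the threshold (right; dark, higher in WS; light, lower in WS) for models of 1 to 14 coding exons, with intronless genes in red. The change is largest for intronless genes (1.10) and lowest for 14 exons (0.69), while the percentage called is highest for 2 exons (6.36%).

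Among intronless genes, short genes had larger log2 fold changes than long ones. The median absolute log2 fold change was 1.32 in 499 intronless genes of up to 500 bp, 1.16 in 464 genes above 500 and up to 800 bp, 1.03 in 484 genes above 800 and up to 1300 bp, and 0.90 in 483 longer genes. In models of 2 to 14 exons of the same length classes it was 0.78, 0.83, 0.83 and 0.85, with no such decline. Up-regulated genes made up 6.01%, 3.45%, 3.31% and 1.66% of the intronless genes from the shortest to the longest class, whereas the down-regulated share stayed between 2.16% and 2.69%. Levels per length declined too, at 25.2, 20.9, 17.1 and 6.74 CPM per kb, against 29.9 and 15.9 CPM per kb in the shortest and longest class of models with 2 to 14 exons. Not divided by length, the median mean CPM of the intronless classes was 10.2, 12.2, 17.3 and 12.6, lowest in the shortest class. The length classes were not matched on level. Matched on both level and length, in strata chosen after the data were seen, the median absolute log2 fold change was 1.10 for intronless genes and 0.86 for models of 2 to 14 exons. It was larger for intronless genes in 27 of these 32 strata.

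The best described intronless family in these roots was that of AP2/ERF transcription factors, which bind DNA through the AP2/ERF domain and take part in responses to ethylene, cold, drought, wounding and low oxygen. Of 129 AP2/ERF genes in the table used, 79 were intronless without a note, 33 of these were expressed above the limit, and 8 were up-regulated and 0 down-regulated, beside 2.45% up and 1.91% down among all models tested. At an unadjusted p under 0.05, 17 of the 33 passed. The up-regulated number was 10 without WS replicate 1 and 9 without WS replicate 2, and without either NS library none was called. Of 41 AP2/ERF genes with 2 or more exons and no note, 27 were expressed above the limit, and 3 were up-regulated and 0 down-regulated. These 27 included 11 genes of the AP2 family, which had 0 intronless models and 0 calls. Among ERF-type genes (groups V to X) alone, 6 of 23 intronless genes and 3 of 12 genes with 2 or more exons were up-regulated. Their median log2 fold changes were 2.32 for intronless genes and 1.43 for genes with 2 or more exons.

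The coding stretch where the AP2/ERF domain begins is shown for the 8 up-regulated genes, since it is the shared feature that defines the family. Each line gives 54 bases of the coding strand, 5′ to 3′, taken from the study's list of AP2/ERF genes, and the 15 capitals mark 5 codons, of which the third is a glycine codon in all 8 genes.
JcERFII-4: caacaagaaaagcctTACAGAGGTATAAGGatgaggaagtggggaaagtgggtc
JcERFVIII-11: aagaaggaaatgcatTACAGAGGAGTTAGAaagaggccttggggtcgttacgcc
JcERFIX-3: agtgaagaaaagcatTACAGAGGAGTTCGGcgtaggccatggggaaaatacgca
JcERFIX-8: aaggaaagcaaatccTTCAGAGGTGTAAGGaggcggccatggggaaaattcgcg
JcERFIX-10: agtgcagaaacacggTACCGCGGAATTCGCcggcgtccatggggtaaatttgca
JcERFIX-11: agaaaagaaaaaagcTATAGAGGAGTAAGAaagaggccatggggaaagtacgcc
JcERFIX-14: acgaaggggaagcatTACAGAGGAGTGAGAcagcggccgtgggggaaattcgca
JcRAV-3: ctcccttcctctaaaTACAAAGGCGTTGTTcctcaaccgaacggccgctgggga
The list holds the first 399 bases of each of these coding regions. The pattern searched was a codon for tyrosine, phenylalanine or arginine, then codons for arginine or lysine, glycine, valine or isoleucine, and arginine or valine. It was found within the bases listed for 60 of the 79 intronless and 78 of all 129 AP2/ERF genes. Within the bases listed, the longest run of identical bases between a called gene and any other AP2/ERF gene of the list was 32 bases. It was shared by JcERFVIII-11 and JcERFVIII-3. The run is shorter than the minimum read length that the study gives, so no read lies wholly within it. Reads that match both genes with mismatches were not examined.

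JcRAV-3 (Jcr4S03357.10, scaffold Jcr4S03357, 1425 to 2507, minus strand, 1083 bp) belongs to the RAV family, whose proteins join an AP2 domain to a B3 DNA-binding domain. It had 617 and 517 CPM in WS and 12.1 and 13.6 CPM in NS. The libraries of a treatment lay close together, and its log2 fold change was 5.47 (SE 0.51, adjusted p = 0.00258, edgeR quasi-likelihood test). SE here and below is an approximate standard error, the absolute log2 fold change over the square root of the F statistic of the test. Of 3 intronless RAV genes, it was the only member expressed above the limit.

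Group IX ERFs, known from other plants for ethylene and jasmonate responses, gave 5 of the 8 calls. JcERFIX-14 (Jcr4S05515.20, scaffold Jcr4S05515, 11387 to 12058) had 567 and 263 CPM in WS, against 4.89 CPM and no read in NS. Its log2 fold change was 7.01 (SE 0.96, adjusted p = 0.00599, edgeR quasi-likelihood test), or 6.34 without WS replicate 1 and 6.38 without NS replicate 2, while no NS read was left without NS replicate 1. JcERFIX-3 (Jcr4S01276.110, scaffold Jcr4S01276, 35653 to 36477) had 144 and 97.6 CPM in WS and 10.1 and 9.07 CPM in NS, a log2 fold change of 3.64 (SE 0.54, adjusted p = 0.00754). Libraries of a treatment lay close together beside the gap between treatments. JcERFIX-11 (Jcr4S05283.50, scaffold Jcr4S05283, 18317 to 18859) had 216 and 66 reads in WS and 5 and 2 reads in NS. Its log2 fold change was 5.40 (SE 0.87, adjusted p = 0.0109), with 4.80 without WS replicate 1 and 4.75 without NS replicate 1.

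JcERFIX-10 (Jcr4S05283.40, scaffold Jcr4S05283, 9432 to 9887) and JcERFIX-8 (Jcr4S03023.50, scaffold Jcr4S03023, 22492 to 23151) had most of their reads in WS replicate 1. JcERFIX-10 had 400 and 19 reads in WS and 1 and 0 reads in NS, a ratio of WS to NS of 537 (95% counting interval 95.8 to 21254, adjusted p = 0.0195, edgeR quasi-likelihood test). The ratio was 62.9 without WS replicate 1, 836 without WS replicate 2 and at least 25.2-fold without NS replicate 1. JcERFIX-8 had 381 and 20 reads in WS and 2 and 0 reads in NS, a ratio of 257 (95% counting interval 70.7 to 2128, adjusted p = 0.0211). It was 33.1 without WS replicate 1, 398 without WS replicate 2 and at least 24.2-fold without NS replicate 1. With either WS library left out, neither gene reached the limit on CPM, and neither call was kept with limma voom (adjusted p = 0.111 for JcERFIX-10 and 0.113 for JcERFIX-8) or at equal depth (0.0694 for JcERFIX-10 and 0.103 for JcERFIX-8, edgeR quasi-likelihood test).

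The remaining calls came from groups VIII and II. JcERFVIII-11 (Jcr4S05837.30, scaffold Jcr4S05837, 5618 to 6253) had 687 and 224 CPM in WS and 26.9 and 12.1 CPM in NS. Both WS libraries lay well above NS, with a log2 fold change of 4.5 (SE 0.70, adjusted p = 0.00915, edgeR quasi-likelihood test), or 3.52 without WS replicate 1 and 5.21 without NS replicate 1. JcERFII-4 (Jcr4S01288.20, scaffold Jcr4S01288, 9332 to 9808, 477 bp), of a DREB-type group, had 121 and 128 CPM in WS and 13.9 and 21.2 CPM in NS, a log2 fold change of 2.85 (SE 0.51, adjusted p = 0.0170). It was the only DREB-type gene among the calls.

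Across the 33 intronless AP2/ERF genes, fitted log2 fold changes ranged from -6.19 to 8.50 with a median of 1.82, beside a median of 0.03 over all intronless genes, and 25 were positive. JcERFIX-10 (8.50), JcERFIX-8 and JcERFIX-1 met the limit on CPM through the WS libraries alone. JcERFIX-19 (-6.19) and JcERFV-1 met it through the NS libraries alone. The direction of these genes was thus set by the limit. The share of positive values over all models was not counted. The median stayed at 1.82 with the 2 genes without a read in a treatment set to their floor bounds. The 23 ERF-type genes (groups V to X) had a median of 2.32 and 6 calls, and 20 of them were positive. The 9 DREB-type genes (groups I to IV) had a median of -0.13 and 1 call, and 4 were positive. Fewer DREB-type genes were expressed at all, with 9 of 37 intronless models above the limit, against 23 of 39 ERF-type models. The 6 group VIII genes, a group known in other plants for repressors, all had positive values (0.79 to 4.5). In group IX the 11 fitted values ranged from -6.19 to 8.50, with 9 positive.

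Several AP2/ERF genes that did not pass had separated libraries. JcERFVIII-3 (Jcr4S00148.70) had 555 and 111 CPM in WS and 52.0 and 13.6 CPM in NS (adjusted p = 0.0634, edgeR quasi-likelihood test). JcERFIX-1 (Jcr4S00154.110) had 43 and 17 reads in WS and none in NS (adjusted p = 0.0553). JcERFVIII-7 (Jcr4S01431.30) had 62.5 and 90.1 CPM in WS and 24.6 and 10.6 CPM in NS (adjusted p = 0.0866). All of these were higher in both WS libraries. On the other side, JcERFIX-19 (Jcr4S11523.20) had no read in WS and 22 and 2 reads in NS (adjusted p = 0.172). JcERFI-3 (Jcr4S01198.20), at 104 and 67.8 CPM in WS and 187 and 52.9 CPM in NS, had overlapping libraries. These genes were chosen after their values were seen.

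**Figure D4:**
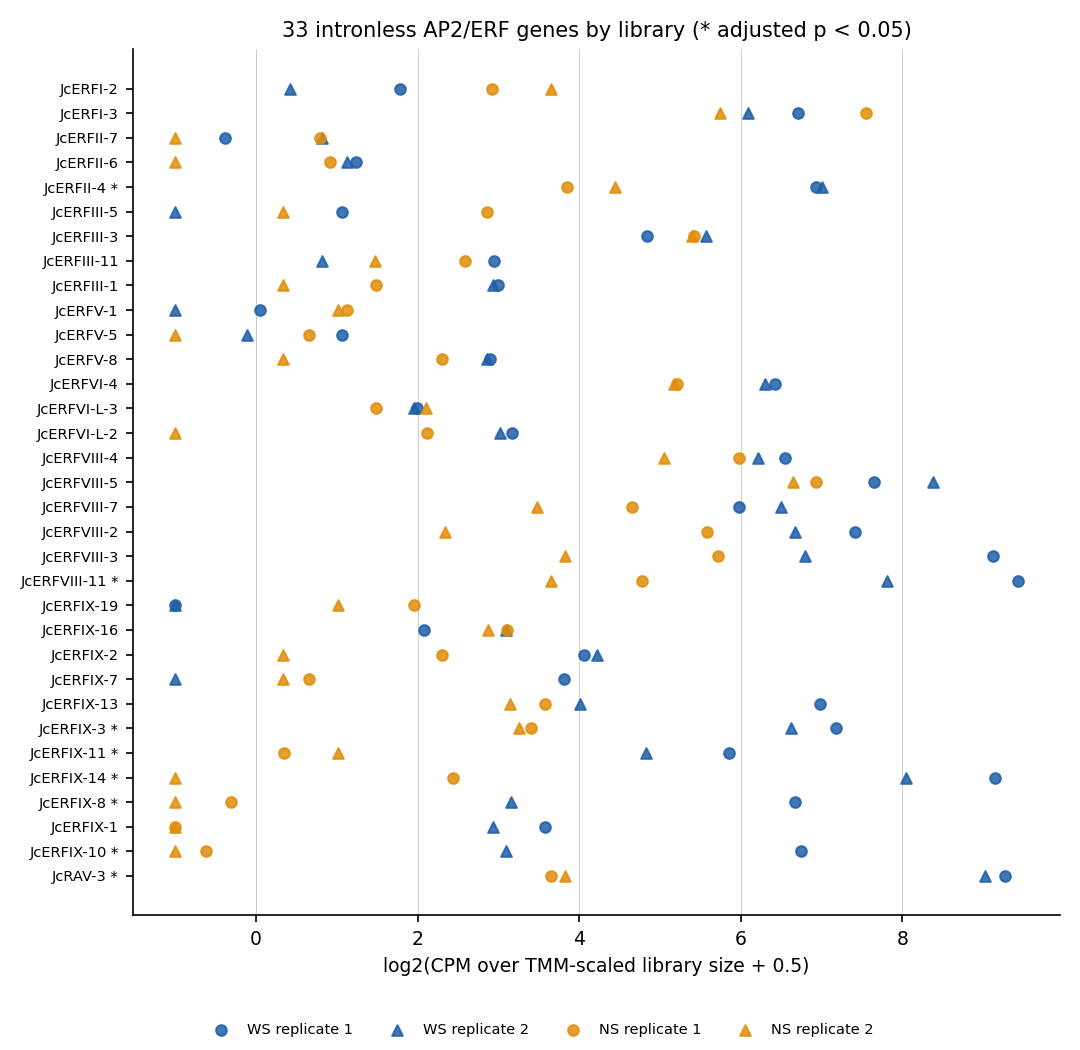
Rows are the 33 intronless AP2/ERF genes, ordered by group and then by log2 fold change, and points give log2 of CPM over the TMM-scaled library size with 0.5 added in each library (blue, WS; orange, NS; circles, replicate 1; triangles, replicate 2). The 8 genes marked with an asterisk passed the threshold, and WS replicate 1 lies far above WS replicate 2 in JcERFIX-8 and JcERFIX-10.

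Another intronless transcription factor was the trihelix gene Jcr4S02762.30 (scaffold Jcr4S02762, 6467 to 7723, plus strand, 1257 bp), which the study pairs with Arabidopsis HYPOXIA RESPONSE ATTENUATOR1, a factor that restrains the group VII ERFs. The study measured this gene by real-time PCR with a primer pair, shown here because it identifies the transcript that was amplified.
Trihelix-F: gcagcaagtgagctatcaac
Trihelix-R: atgatggtgaagatcaagcaattc
The gene had 1795 and 1252 CPM in WS and 36.7 and 6.05 CPM in NS, so the WS libraries lay far above both NS libraries. Its log2 fold change was 6.08 (SE 0.82, adjusted p = 0.00599, edgeR quasi-likelihood test), with 7.94 without NS replicate 1 and 5.36 without NS replicate 2.

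Descriptions by best match to other species were at hand for 88 intronless genes, of which 78 had a match. Among these 88, 4 were higher and 0 lower in WS, 25 passed at an unadjusted p under 0.05, and the median log2 fold change was 0.17. The described genes named here lay on scaffolds Jcr4S00001 to Jcr4S00037, where no intronless gene was down-regulated. The split of calls among them thus does not stand for all intronless genes. The background among all models tested was 4.37% called and 19.9% at an unadjusted p under 0.05.

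Jcr4S00006.130 (scaffold Jcr4S00006, 66147 to 67235), matching a RING-type protein similar to Arabidopsis CIP8, was already abundant in NS roots. It had 1120 and 1751 CPM in WS and 318 and 324 CPM in NS, with a log2 fold change of 2.16 (SE 0.45, adjusted p = 0.0298, edgeR quasi-likelihood test, but 0.0570 at equal depth). In the list for protein degradation, 1 of 5 intronless genes was up-regulated, the cystatin gene Jcr4S00024.130 (336 bp), whose product inhibits cysteine proteases. It had 82.7 and 115 CPM in WS and 13.9 and 7.56 CPM in NS. The others in this list did not pass. Jcr4S00016.20, matching a kelch repeat protein, had 1899 and 344 reads in WS and 437 and 108 reads in NS (adjusted p = 0.0866), whereas Jcr4S00008.110, matching a RING protein, had no read in WS and 39 and 2 reads in NS (adjusted p = 0.136).

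Calcium sensors were represented by 2 of the 88 intronless genes with a description. Jcr4S00002.320 (scaffold Jcr4S00002, 157545 to 158126, minus strand, 582 bp), whose best match was Arabidopsis CML38, a calmodulin-like sensor, had 197 and 98.5 CPM in WS, against 2.75 CPM and no read in NS. It passed (adjusted p = 0.0067, edgeR quasi-likelihood test), with no NS read left without NS replicate 1. Jcr4S00013.10, matching CML41, had 13 and 1 reads in WS and 7 and 0 reads in NS and did not pass. Jcr4S00037.150, a gene of 378 bp with no match, was the remaining call, at 64.9 and 70.7 CPM in WS and 11.0 and 12.9 CPM in NS (adjusted p = 0.0352).

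In the other lists, drawn only from the 88 intronless genes with a description, no gene passed. Most of the 1930 members were in no list, among them the called AP2/ERF genes and the trihelix gene. The lists thus do not show how a class of intronless genes responded as a whole. None of 9 genes of transcription regulation passed, with log2 fold changes of -2.96 to 2.09 and 1 at an unadjusted p under 0.05, and 2 of these 9 were also AP2/ERF genes. Both genes for chaperones passed at an unadjusted p under 0.05 only, the DnaJ-domain gene Jcr4S00006.60 with 143 and 13 reads in WS and 16 and 1 reads in NS, and the prefoldin gene Jcr4S00033.80 with 170 and 185 reads in WS and 207 and 10 reads in NS. Scaled for depth, the prefoldin gene had 45.2 and 77.9 CPM in WS and 31.7 and 7.56 CPM in NS. Of 5 biotic stress genes, the glycosyl hydrolase gene Jcr4S00037.10 had no read in WS and 63 and 2 reads in NS (adjusted p = 0.112, edgeR quasi-likelihood test). Among 2 genes of secondary metabolism, Jcr4S00005.340, matching the lignin and flavonoid entry enzyme phenylalanine ammonia-lyase, had 134 and 7 reads in WS and 34 and 13 reads in NS, so its WS libraries disagreed. The lists for cell wall and pectin (3 genes), pentatricopeptide repeat proteins (2), ribosomal proteins (2), photosynthesis (2), kinases (1), transport (1) and hormone metabolism (1) held none at an unadjusted p under 0.05, and the list for DNA and chromatin held no intronless gene.

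Of the 5 genes with the highest fitted fold changes, JcERFIX-10 is given above. The other 4, of 321 to 426 bp, were known by ID only in the tables used, which describe only part of the models. Jcr4S17195.20 (scaffold Jcr4S17195, 2417 to 2833, minus strand, 417 bp) had 1505 and 569 reads in WS and 1 read in each NS library. The ratio of WS to NS was 1329 (95% counting interval 367 to 10978, adjusted p = 0.00257, edgeR quasi-likelihood test), and it ranged from 447 without NS replicate 1 to 2210 without NS replicate 2. Jcr4S27130.10 (scaffold Jcr4S27130, 674 to 1099, plus strand, 426 bp) had 1071 and 217 reads in WS and 3 and 0 reads in NS. Its ratio was 550 (95% counting interval 188 to 2671, adjusted p = 0.00306), with 239 without WS replicate 1 and a bound of at least 82.9-fold without NS replicate 1.

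Jcr4S02206.60 (scaffold Jcr4S02206, 21019 to 21357, minus strand, 339 bp) had 2015 and 198 reads in WS and 11 and 0 reads in NS. Its log2 fold change was 7.95 (SE 1.15, adjusted p = 0.00717, edgeR quasi-likelihood test), with 6.13 without WS replicate 1 and 8.67 without WS replicate 2, while no NS read was left without NS replicate 1, and with limma voom the adjusted p was 0.0581. Jcr4S17606.20 (scaffold Jcr4S17606, 5293 to 5613, plus strand, 321 bp) was the only up-regulated member without an NS read. It had 90 and 24 reads in WS, at least 12.5-fold above the floor of 3 counts in each NS library (adjusted p = 0.0264, but 0.0608 at equal depth), and the bound was 7.41 without WS replicate 1, 7.50 without NS replicate 1 and 37.1 without NS replicate 2. All 4 of these genes were higher in WS replicate 1 than in WS replicate 2. Jcr4S17195.20, Jcr4S27130.10 and Jcr4S17606.20 did not reach the limit on CPM when either WS library was left out and were then not tested.

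The genes with the lowest fitted fold changes were also known by ID only in the tables used, and had 9.48 to 73.4 CPM in the NS libraries. Jcr4S00208.210 (1449 bp) had no read in WS and 165 and 31 reads in NS, or 25.2 and 23.4 CPM, so that WS was at least 23.6-fold lower at a floor of 3 counts per WS library (adjusted p = 0.0124, edgeR quasi-likelihood test). Jcr4S09513.20 (scaffold Jcr4S09513, 1452 to 2447, 996 bp) had 0 and 2 reads in WS and 121 and 37 reads in NS, a ratio of WS to NS of 0.0162 (95% counting interval 0.00195 to 0.0596, adjusted p = 0.0351, edgeR quasi-likelihood test). The ratio was 0.0419 without WS replicate 1, and the WS level was at least 29.1-fold lower without WS replicate 2. Jcr4S01521.70 (scaffold Jcr4S01521, 13514 to 13927, 414 bp) had 2 and 0 reads in WS and 109 and 28 reads in NS, a ratio of 0.0187 (95% counting interval 0.00224 to 0.0689, adjusted p = 0.0346). It was 0.0305 without WS replicate 2 and at least 15.0-fold lower in WS without WS replicate 1. Counts in these WS libraries were at or below the floor of 3 counts.

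Jcr4S01534.70 (scaffold Jcr4S01534, 31141 to 32148, 1008 bp) had 1 and 0 reads in WS and 68 and 24 reads in NS, a ratio of 0.0139 (95% counting interval 0.000349 to 0.0795, adjusted p = 0.0421, edgeR quasi-likelihood test). The ratio was 0.0227 without WS replicate 2 and 0.00898 without NS replicate 1, and the WS level was at least 11.3-fold lower without WS replicate 1. Jcr4S11972.50 (scaffold Jcr4S11972, 21315 to 21998, 684 bp) had 2 and 2 reads in WS and 62 and 97 reads in NS, a log2 fold change of -5.86 (SE 1.20, adjusted p = 0.0283). Its NS libraries differed widely, at 9.48 and 73.4 CPM, and the call was not kept with limma voom (adjusted p = 0.159). At equal depth the calls of Jcr4S09513.20, Jcr4S01521.70, Jcr4S01534.70 and Jcr4S11972.50 were lost (adjusted p = 0.0664, 0.0621, 0.119 and 0.0734, edgeR quasi-likelihood test). None of the 5 lowest genes reached the limit on CPM with either NS library left out.

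The most abundant intronless genes did not pass. Jcr4S00518.10 (scaffold Jcr4S00518, 4926 to 6071, 1146 bp) had 2768 and 2225 CPM in WS and 4213 and 2573 CPM in NS, with a log2 fold change of -0.44 (SE 0.45). Jcr4S01173.10 (scaffold Jcr4S01173, 1838 to 2356, 519 bp) had 2441 and 3775 CPM in WS and 2882 and 1663 CPM in NS, with a log2 fold change of 0.45 (SE 0.47). Libraries of both genes overlapped between treatments. Jcr4S07287.10 (scaffold Jcr4S07287, 8 to 1681, 1674 bp) had 1828 and 1432 CPM in WS and 1126 and 1199 CPM in NS, with a log2 fold change of 0.49 (SE 0.41). Other abundant genes, singled out after their values were seen, did pass. Jcr4S01993.10 (1116 bp) had 2408 and 2959 CPM in WS and 215 and 231 CPM in NS, and its log2 fold change was 3.59 (SE 0.46, adjusted p = 0.005, edgeR quasi-likelihood test). Jcr4S01534.80 had 475 and 615 CPM in WS and 1591 and 2488 CPM in NS, with a log2 fold change of -1.90 (SE 0.45, adjusted p = 0.0497). The 10 most abundant intronless genes of a library took 21.2% and 19.9% of the intronless counts in WS and 20.3% and 18.8% in NS.

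**Figure D5:**
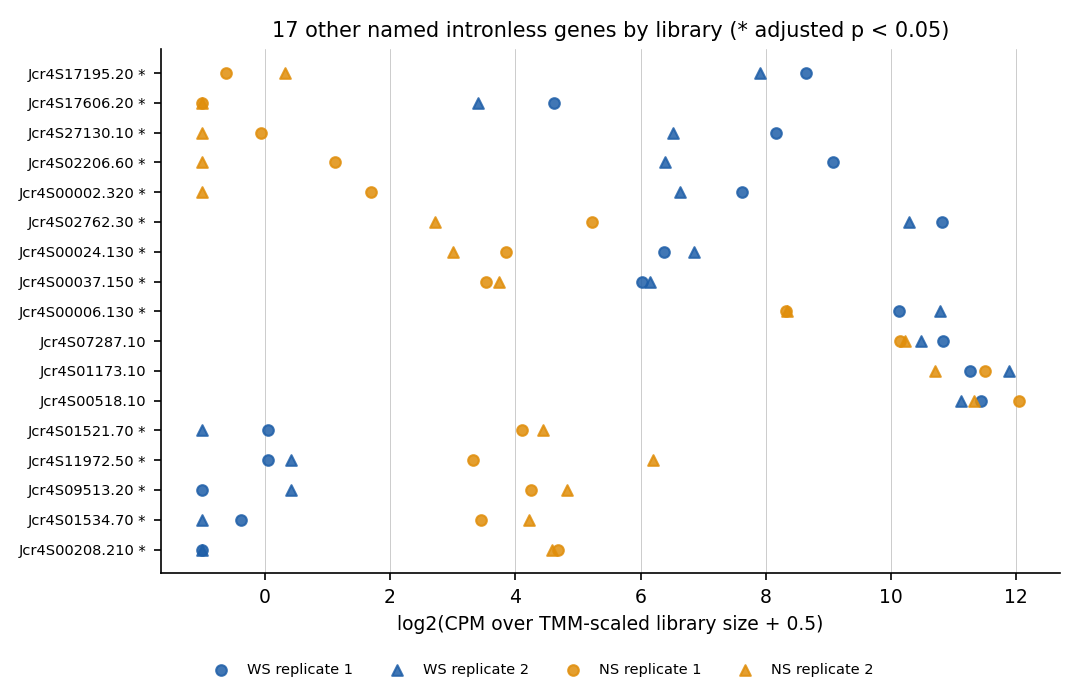
Rows are 17 named intronless genes outside the AP2/ERF family, ordered by log2 fold change from the highest at the top, and points give log2 of CPM over the TMM-scaled library size with 0.5 added in each library (blue, WS; orange, NS; circles, replicate 1; triangles, replicate 2). Genes without an asterisk are the 3 most abundant members, whose WS and NS points lie close together, and points at -1 are libraries without a read.

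Some intronless genes lay next to each other, with no other gene model between them. Among the expressed members, 172 pairs were direct neighbours on a scaffold, covering 323 genes with a median gap of 2441 bp, and 98 pairs were on the same strand. The sign of the log2 fold change was the same in 102 of the 172 pairs. In 18 pairs a single gene passed, in 1 pair both were up-regulated and in 1 pair both were down-regulated. The pair with both up-regulated was JcERFIX-10 and JcERFIX-11, on opposite strands 8429 bp apart. Both genes of the pair Jcr4S01534.70 and Jcr4S01534.80, on the same strand 4394 bp apart, were down-regulated. Neighbouring AP2/ERF pairs also included JcERFIX-2 and JcERFIX-3, 4654 bp apart with log2 fold changes of 2.53 and 3.64, and JcERFIX-7 and JcERFIX-8, 9612 bp apart with fitted log2 fold changes of 2.80 and 7.64, of which the second named gene of each pair passed. In a pair singled out after its values were seen, the neighbours passed in opposite directions. Jcr4S01116.90 had 88.6 and 103 CPM in WS and 16.7 and 5.29 CPM in NS (log2 fold change 3.04, SE 0.63), and Jcr4S01116.80, 5456 bp away, had 5.32 and 1.26 CPM in WS and 56.3 and 83.2 CPM in NS (log2 fold change -4.32, SE 0.76).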

How the data were processed

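The authors trimmed and filtered Ion Proton reads, mapped them with TMAP to release 4.5 of the Jatropha genome and deposited raw counts per gene model made with HTSeq. HTSeq and edgeR stand in the submitters' processing notes without a version. For strand, reads with several matches and reads across exon junctions, the treatment was not given in the sources used here. No use was made of the score that the deposited annotation gives each model, nor of the authors' deposited comparison (log2 fold changes, p-values and CPM).

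Counts joined the annotation for 57437 of 57437 models. Models were compared with edgeR 4.0.16 in R 4.3.3 (TMM scaling, glmQLFit and glmQLFTest, no covariate, two-sided, Benjamini-Hochberg adjusted p under 0.05) after a CPM of 1 or more in 2 or more libraries, the study's filter and scaling. The study's likelihood ratio test, DESeq2 1.42.0, limma 3.58.1 voom, other scalings and filters, thinning to equal depth, blocking on replicate, leaving out libraries, and other member rules and strata were alternatives. The test was tested on simulated data. The biological coefficient of variation was 0.536. Same-numbered libraries deviated together with r = 0.0867 across genes, and no label pairs them. Whether the libraries of a treatment came from separate plants is known only from the word biological in the design, so p-values measure the spread between these libraries.

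Where a treatment had no read, bounds used 3 counts per library, and ratios with 1 to 3 reads carry an exact 95% counting interval. Both cover counting error only. Summaries used Biopython 1.88, matplotlib 3.10.9, scipy 1.17.1, numpy 2.4.6 and pandas 2.3.3 in Python 3.11.15.

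Among the genes past the threshold, the text names each AP2/ERF gene, up to 10 with a description, and those with the 5 highest and 5 lowest fitted log2 fold changes, and it also names the 3 genes of highest mean CPM and genes for which the study gives an ID. The members and lists were chosen with earlier results of these data known. Descriptions came from 665 rows of the study's annotation table, and AP2/ERF names from its list of 129 genes used here. The RefSeq table used matched 0 gene IDs.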

Additional observations from a re-analysis of the deposited data

How the results depend on the processing

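The larger median absolute log2 fold change of intronless genes (1.10, against 0.88 in level-matched models of 2 to 14 exons) was kept in 13 of 13 alternative fits. Up-regulated and down-regulated intronless genes numbered 70 and 45 as reported, and other tools called more. They numbered 155 and 155 with the likelihood ratio test (553 and 729 among models of 2 to 14 exons), 140 and 115 with DESeq2 (503 and 541), and 166 and 140 without a low-count filter (599 and 688), where the medians of the absolute log2 fold change were 1.42 and 1.30. Up-regulated intronless AP2/ERF genes numbered 13 in each of these fits, and the likelihood ratio test gave 1 down-regulated. At equal depth, 19 intronless genes and 147 models of 2 to 14 exons were down-regulated. Library totals moved the intronless median log2 fold change to -0.19. A replicate block gave 131 and 123 intronless calls, 493 and 617 among models of 2 to 14 exons and 13 AP2/ERF genes. Of all models tested, 9.67% were called with the block. No label pairs the libraries, and r = 0.0867 over 2 pairs cannot show whether same-numbered libraries belong together.

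With each library left out, intronless calls ranged from 0 to 147 up-regulated and from 0 to 181 down-regulated, those of models of 2 to 14 exons from 0 to 591 and from 0 to 860, and up-regulated AP2/ERF genes from 0 to 10. The median log2 fold change ranged from -0.13 to 0.24, and the median absolute log2 fold change from 0.94 to 1.39 in intronless genes and from 0.78 to 1.19 in level-matched models. No named gene reversed. Of 22 named calls, 8 were lost at equal depth and 4 with limma voom, and none was called with either NS library left out.

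Depth limited the low genes most, since 3 counts stand for 0.724 and 1.19 CPM in the WS libraries and 0.491 and 2.49 CPM in the NS libraries.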

Other observations

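Single-exon models that carry a note (such as short, partial or TE) were not counted as intronless genes. Of 12490 such models, 886 reached the limit on CPM, and 35 were up-regulated and 11 down-regulated in WS (5.19% called, beside 4.37% of all models tested). Their median log2 fold change was 0.29 and their median absolute log2 fold change 1.05, against 0.03 and 1.10 in the intronless genes.

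In the list for transcription regulation, the gene with the lowest log2 fold change was Jcr4S00033.60, matching an ovate family protein, a class of plant transcriptional repressors, with 2 and 8 reads in WS and 44 and 31 reads in NS (log2 fold change -2.96, adjusted p = 0.212, edgeR quasi-likelihood test). Of the chitinase genes on scaffold Jcr4S00001, Jcr4S00001.180 had 54 and 0 reads in WS and 60 and 21 reads in NS, and Jcr4S00001.190 had 62 and 3 reads in WS and 33 and 55 reads in NS, so the libraries of a treatment disagreed in both. The longest intronless gene, Jcr4S14095.10 (3837 bp), had 14.9 and 13.5 CPM in WS and 9.33 and 37.1 CPM in NS.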
